A study of Arabidopsis thaliana and Boechera depauperata with 12 samples.

Results

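The type I chaperonins of mitochondria and plastids were examined in heat-stressed *A. thaliana*. The group was the 10 genes of the counts with the identifiers listed for it, of 33977 genes in all. It holds the mitochondrial *CPN60* genes *HSP60* (AT3G23990), *HSP60-2* (AT2G33210) and *HSP60-3A* (AT3G13860), and the plastid *CPN60* genes *CPN60A1* (AT2G28000), *CPN60B1* (AT1G55490), *CPN60B2* (AT3G13470) and *CPN60B3* (AT5G56500). The other 3 are the co-chaperonin genes *CPN20* (AT5G20720), *CPN10* (AT1G14980) and *CPN10-like* (AT1G23100). All 10 had counts in every library and all 10 passed the filter on low counts, which left 17669 genes to test.

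Type I chaperonins are barrels of CPN60 subunits that enclose an unfolded protein and let it fold with ATP. A ring of small co-chaperonin subunits closes the barrel as a lid. The mitochondrial barrel is built from HSP60 subunits and closed by CPN10. The plastid barrel mixes alpha and beta CPN60 subunits and is closed by CPN20, in which a pair of CPN10-like domains is joined in tandem, together with plastid CPN10. The plastid chaperonin was first known as the binding protein of the Rubisco large subunit, which it folds. Cytosolic proteins are folded by a distinct, type II chaperonin, called CCT.

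The study compared acquired and basal heat stress with control conditions. In A/HS, plants were kept at 38 °C for 1 h, at 22 °C for 1 h and then at 43 °C for 3 h (libraries W5 and W6). In B/HS, plants went straight to 38 °C for 3 h (W3 and W4), and control plants stayed at 22 °C (W1 and W2). The 2 libraries of a condition came from plants raised separately from germination on. No transgene or mutation is named for any group, and ecotype and age are not given in the sources used here. Both heat conditions are set against the same 2 control libraries, and A/HS differs from B/HS in peak temperature as well as in the earlier treatment, so these cannot be told apart.

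The *A. thaliana* libraries held between 11819511 and 15297546 counts, of which 58.1 to 74.9 % lay on chloroplast and mitochondrial genes, and between 3235697 and 5344301 on nuclear genes. Levels are given as CPM (counts scaled to library size, with TMM factors), and levels of different genes are compared as CPM per kb of exon. The labels give the tissue as root. For its RT-PCR the study repeated the heat stress and extracted RNA from leaves, and its methods name no tissue for the RNA-seq libraries. Together, 8 green shoot markers made up 3128 to 6561 CPM in each library, while 8 root markers made up 8.47 to 25.6 CPM, 4 of them were at 0 in some library and 5 had at most 23 counts in every library, so the markers go against a pure root sample. The summed green markers were 4067 and 3128 CPM after A/HS, 5219 and 4730 CPM after B/HS and 6561 and 5236 CPM in control plants, and their part in the chaperonin values was not tested. In these bulk samples fewer cells of a type and less RNA per cell cannot be told apart. All 6 heat shock genes taken as a check (*HSP101*, *HSP21*, *HSP23.6*, the small heat shock protein gene AT5G12030, *HSP90.1* and *HSFA2*) were called at least 4-fold higher under both treatments. The share of all tested genes was 2.92 % after A/HS and 3.76 % after B/HS. Since the gene lists were chosen with earlier results of these data known, this is no independent check of the treatments. These 6 genes were also 2.03 to 2.24 times as high in control library W2 as in control library W1, when the median of all well-covered genes was at a ratio of 0.992. The same ratio ran from 0.915 (*CPN60B1*) to 1.85 (*HSP60*) in 9 of the chaperonin genes and was 3.92 in *CPN10-like*, so values without each control library are given where they change a call of these 10 genes.

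The stretches just upstream of the annotated start of 4 plastid chaperonin genes are shown because these genes span the range of heat responses described below. They come from the RefSeq assembly TAIR10.1, read 5′ to 3′ on the gene's strand, and end at the base before the gene's start. Capitals mark the heat shock element letters GAANNTTC or TTCNNGAA and the letters GGCCCA or TGGGCC. The second motif was chosen after the sequences were seen. The *CPN60B2* stretch is chr3:4389095-4389214 (plus strand), that of *CPN60B1* is chr1:20719262-20719381 (minus strand), that of *CPN20* is chr5:7014542-7014661 (plus strand) and that of *CPN60A1* is chr2:11926326-11926445 (plus strand).
CPN60B2: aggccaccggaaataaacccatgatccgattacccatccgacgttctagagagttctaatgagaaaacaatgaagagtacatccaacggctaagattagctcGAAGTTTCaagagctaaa
CPN60B1: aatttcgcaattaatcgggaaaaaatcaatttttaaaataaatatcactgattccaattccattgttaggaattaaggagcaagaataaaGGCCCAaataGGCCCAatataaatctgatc
CPN20: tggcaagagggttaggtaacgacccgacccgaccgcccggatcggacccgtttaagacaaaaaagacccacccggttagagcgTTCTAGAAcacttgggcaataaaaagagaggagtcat
CPN60A1: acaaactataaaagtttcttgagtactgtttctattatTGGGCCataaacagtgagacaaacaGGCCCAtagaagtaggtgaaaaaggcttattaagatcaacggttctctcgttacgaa
Within 250 bases before and 50 bases after the start, a pair of inverted heat shock units was found in 4 of the 10 genes, against 19.3 % of 27443 promoters of the same length (11.6 % with GAANNTTC and 9.16 % with TTCNNGAA, both of which read alike on either strand). The matches began 37 bases before the start in *CPN20*, 18 bases before it in *CPN60B2*, 13 bases before it in *HSP60-3A* and at base 7 of the transcribed part in *CPN60A1*, which lies outside the stretch shown. *CPN60B1* had no match in this window, nor did *HSP60*, *HSP60-2*, *CPN60B3*, *CPN10* or *CPN10-like*. A run of 3 alternating units was in 0 of the 10 genes and in 0.481 % of all promoters. The letters GGCCCA or TGGGCC were in 6 of the 10 (*HSP60-2*, *HSP60-3A*, *CPN60A1*, *CPN60B1*, *CPN60B2* and *CPN10-like*) and in 15.5 % of all promoters. *CPN60B2* and *CPN60B1* each had 2 such matches, and those of *CPN60B2* lie upstream of the stretch shown. Since these letters were chosen after these sequences were seen, the comparison cannot test an excess. A match of letters is a description and shows no binding.

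Most chaperonin genes rose under both treatments. Of the 10 genes, 8 were higher after A/HS than in control plants at an adjusted *P*-value under 0.05 (edgeR's quasi-likelihood test), against 18.3 % of all tested genes, and 0 were lower, against 17.6 %. After B/HS, 8 were higher, against 20.0 % of all tested genes, and 0 were lower, against 19.7 %. *CPN60B1* and *CPN10-like* were the exceptions under both treatments in this test. At an unadjusted *P*-value under 0.05 (edgeR), 9 were higher after A/HS and 10 after B/HS, and 0 were lower. No share of all genes is given for that rule. DESeq2 called 8 higher after A/HS and 7 after B/HS at its adjusted *P*-value, and 0 lower. Of all genes, DESeq2 called 2325 higher and 2057 lower after A/HS, and 2692 higher and 2286 lower after B/HS. The median log2 fold change of the 10 genes was 1.38 after A/HS, when that of all tested genes was 0.02, and 1.90 after B/HS, when that of all tested genes was −0.02. Both libraries lay above both control libraries in 9 of the 10 genes after A/HS, against 34.7 % of all genes, and in 10 of 10 after B/HS, against 36.6 %. With the additional threshold of a 4-fold change for DE, 1 gene was called after A/HS (*CPN60B2*), against 2.92 % of all genes, and 5 after B/HS (*HSP60*, *HSP60-3A*, *CPN60A1*, *CPN60B2* and *CPN10*), against 3.76 %. The A/HS number depended on single libraries and was higher without the A/HS library W5. It was also higher without control library W2. The A/HS log2 fold changes were then 2.33 (*CPN10-like*), 2.31 (*HSP60*), 2.23 (*HSP60-3A*) and 2.01 (*CPN10*), past the 4-fold threshold. The B/HS number was higher without W2 as well, where *CPN10-like* stood at 2.36.

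**Figure D1:**
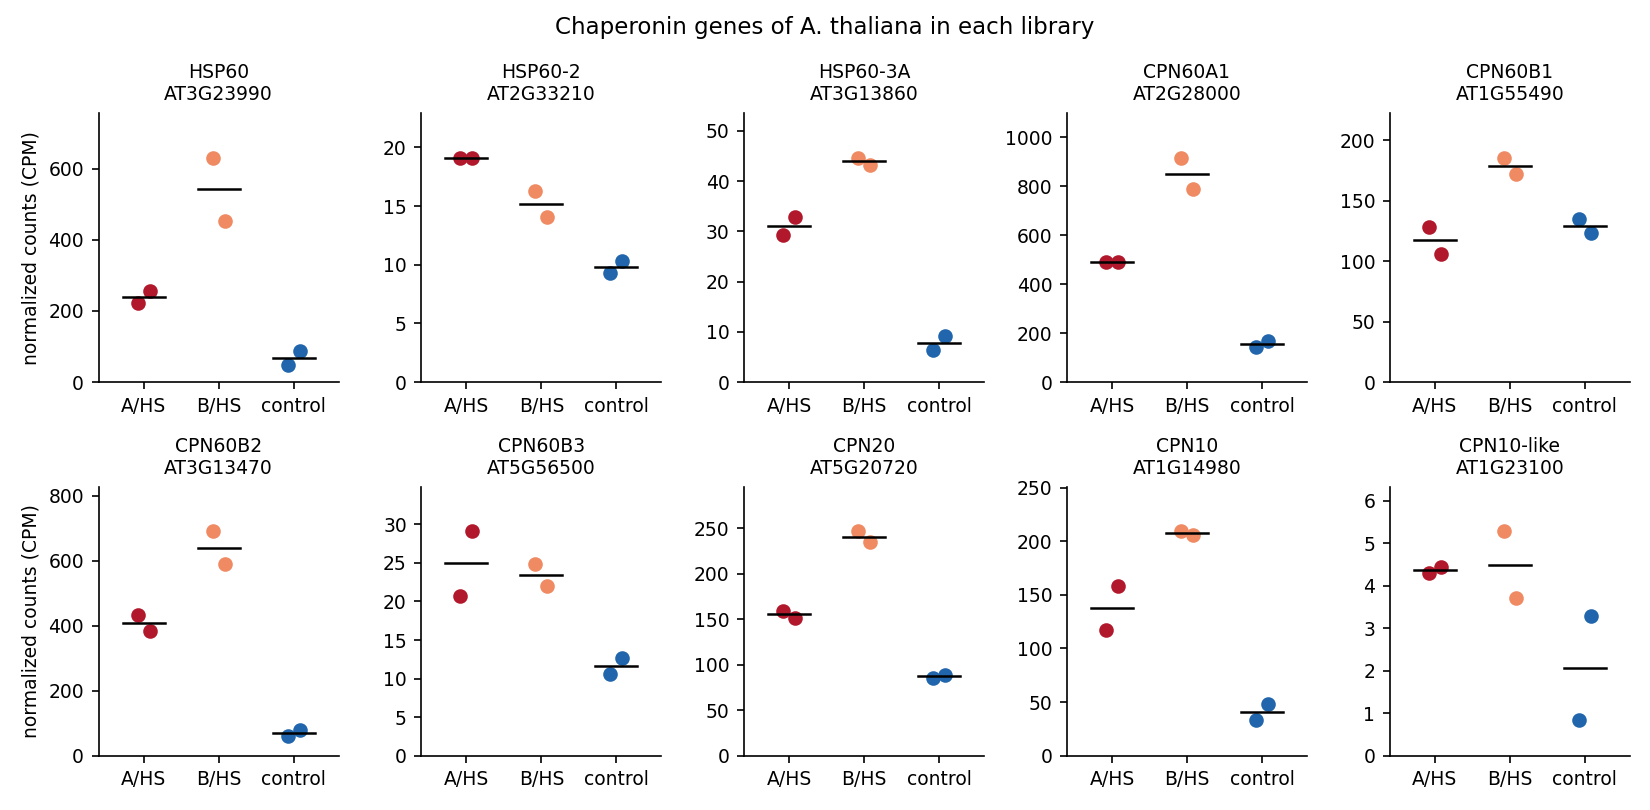
Normalized counts (CPM, linear axes from 0) of the 10 chaperonin genes in the A/HS, B/HS and control libraries of *A. thaliana*. Each point is 1 library and each line the mean of 2. In *HSP60* the B/HS libraries stood at 630 and 452 CPM, above both other conditions, and in *CPN60B1* the A/HS and control libraries overlapped.

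**Figure D2:**
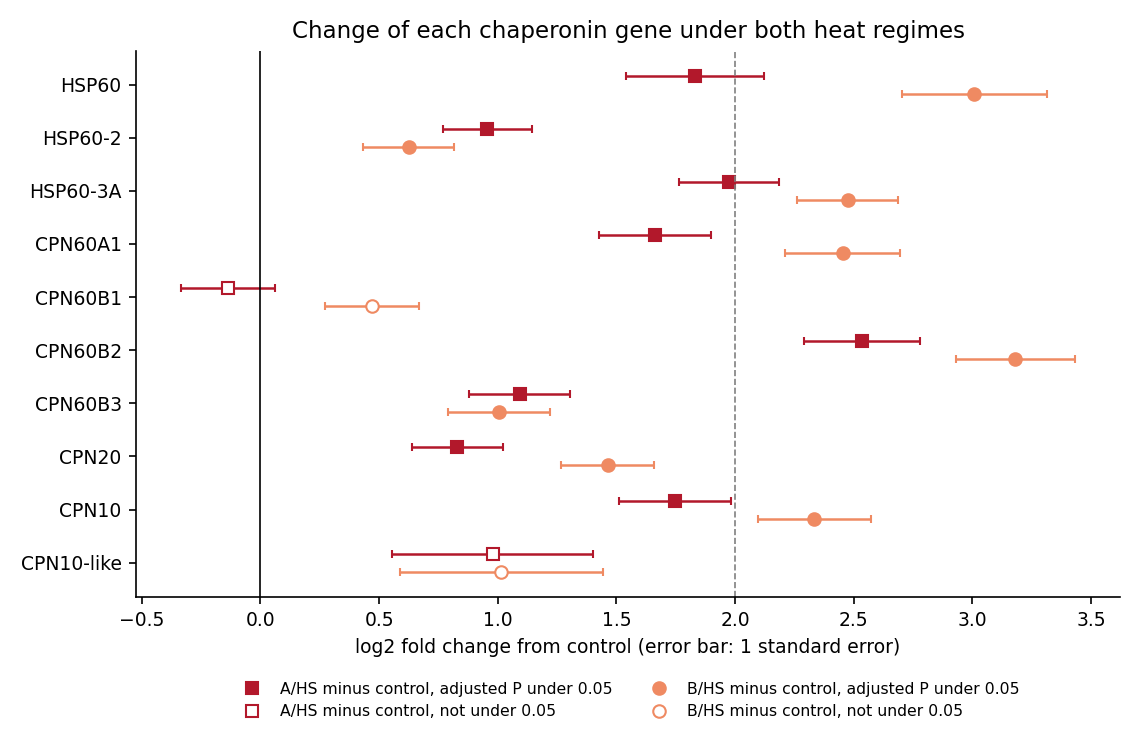
Log2 fold change of each chaperonin gene from control after A/HS (squares) and B/HS (circles), with 1 standard error. Filled symbols had an adjusted *P*-value under 0.05 and the dashed line marks a 4-fold rise. *CPN60B2* was the only gene past that line after A/HS, at 2.54, and *CPN60B1* stood lowest under both treatments.

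*HSP60* encodes the main subunit of the mitochondrial barrel. In assembly TAIR10.1 it lies on chromosome 3 from 8668772 to 8672578 (plus strand) and has 16 exons. It was found at 224 and 255 CPM after A/HS, at 630 and 452 CPM after B/HS and at 47.0 and 87.0 CPM in control plants. No library of one condition overlapped with another condition. *HSP60* rose 3.56-fold after A/HS (log2 fold change 1.83, SE 0.292, adjusted *P* = 0.000392, edgeR) and 8.05-fold after B/HS (3.01, SE 0.305, adjusted *P* = 8.9e-06). It was lower after A/HS than after B/HS by edgeR's test (log2 difference −1.18, SE 0.286, adjusted *P* = 0.0184). That last call did not hold without B/HS library W3 (adjusted *P* = 0.221, edgeR) or without A/HS library W5 (adjusted *P* = 0.0633), and the adjusted *P* ran from 3.3e-05 to 0.221 over all alternatives.

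*HSP60-3A* encodes another mitochondrial CPN60 subunit and was expressed at a lower level. The gene lies on chromosome 3 from 4561517 to 4565335 (minus strand, 17 exons). Its libraries stood at 29.3 and 32.9 CPM after A/HS, at 44.6 and 43.3 CPM after B/HS and at 6.44 and 9.17 CPM in control plants. The 3 conditions did not overlap. It rose 3.93-fold after A/HS (log2 fold change 1.97, SE 0.210, adjusted *P* = 1.8e-05, edgeR) and 5.56-fold after B/HS (2.47, SE 0.212, adjusted *P* = 3.7e-06). The difference of A/HS from B/HS, −0.50 on the log2 scale (SE 0.194), had an adjusted *P* of 0.100 in edgeR's test.

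*HSP60-2*, the third mitochondrial gene, had the smallest fold changes of the 3. In TAIR10.1 it spans 14074767 to 14078772 on the minus strand of chromosome 2, with up to 17 exons. The study reported a retained intron in this gene by RT-PCR, and counts per gene do not separate splice forms. Levels were 19.1 CPM in both A/HS libraries, 16.3 and 14.1 CPM after B/HS and 9.33 and 10.3 CPM in control plants. It was the one chaperonin gene in which both A/HS libraries lay above both B/HS libraries. It rose 1.94-fold after A/HS (log2 fold change 0.96, SE 0.188, adjusted *P* = 0.00171, edgeR) and 1.54-fold after B/HS (0.62, SE 0.191, adjusted *P* = 0.0194). The difference of A/HS from B/HS was 0.33 on the log2 scale (SE 0.184, adjusted *P* = 0.244, edgeR). The B/HS call was lost with DESeq2 (adjusted *P* = 0.0657) and in edgeR without W1 (0.0997), W2 (0.0676) or W3 (0.172), and ran from 0.0124 to 0.172 over all alternatives.

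The make-up of the mitochondrial *CPN60* transcripts, per kb of exon, followed these values. *HSP60* made up 81.6 and 82.4 % after A/HS, 90.7 and 88.2 % after B/HS, and 74.3 and 81.2 % in control plants. *HSP60-2* made up 6.92 and 6.14 % after A/HS, 2.33 and 2.73 % after B/HS, and 14.7 and 9.55 % in control plants. The ratio of *HSP60* to *HSP60-2* was therefore 11.8 and 13.4 after A/HS, 38.9 and 32.3 after B/HS, and 5.07 and 8.51 in control plants, with no overlap between conditions. Shares and ratios are given without a test, since 2 libraries against 2 cannot go below a two-sided *P* of 0.333 in an exact permutation test.

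In the plastid, *CPN60A1* encodes the alpha subunit, which together with beta subunits forms the barrel. In TAIR10.1 it spans 11926446 to 11929488 on the plus strand of chromosome 2, with 8 exons. Its level was 493 and 490 CPM after A/HS, 916 and 787 CPM after B/HS and 143 and 168 CPM in control plants. Conditions did not overlap. *CPN60A1* rose 3.16-fold after A/HS (log2 fold change 1.66, SE 0.236, adjusted *P* = 0.000158, edgeR) and 5.48-fold after B/HS (2.45, SE 0.242, adjusted *P* = 7.3e-06). It was lower after A/HS than after B/HS (log2 difference −0.79, SE 0.230, adjusted *P* = 0.0373, edgeR). This last call was lost without any 1 of the 4 heat-stress libraries (W3, adjusted *P* = 0.314, W4, 0.122, W5, 0.0827, and W6, 0.0996, edgeR), with a range of 0.000629 to 0.314 over all alternatives.

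The beta subunit is encoded by several genes, and these differed widely in their values. *CPN60B2* lies on chromosome 3 from 4389215 to 4393015 (plus strand, 15 exons). *CPN60B2* was found at 434 and 384 CPM after A/HS, at 691 and 589 CPM after B/HS and at 61.2 and 79.6 CPM in control plants. It had the highest fold change of the 10 genes under both treatments, 5.80-fold after A/HS (log2 fold change 2.54, SE 0.245, adjusted *P* = 9.0e-06, edgeR) and 9.07-fold after B/HS (3.18, SE 0.251, adjusted *P* = 2.6e-06). A/HS libraries lay below B/HS libraries, but the difference of −0.65 on the log2 scale (SE 0.231) had an adjusted *P* of 0.0787 in edgeR's test. DESeq2 called it (adjusted *P* = 0.0168), and the range over all alternatives was 0.0168 to 0.439.

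*CPN60B1* was the beta gene with the highest level in control plants. In TAIR10.1 it spans 20715563 to 20719261 on the minus strand of chromosome 1, with up to 15 exons. Its libraries stood at 128 and 106 CPM after A/HS, at 185 and 172 CPM after B/HS and at 135 and 123 CPM in control plants. The A/HS and control libraries overlapped, whereas both B/HS libraries lay above both control libraries. Its log2 fold change was −0.14 after A/HS (SE 0.197, adjusted *P* = 0.622, edgeR) and 0.47 after B/HS (SE 0.198, adjusted *P* = 0.0748). The B/HS value passed the threshold when A/HS library W5 or W6 was left out (adjusted *P* = 0.0459 and 0.0449, edgeR), within a range of 0.0449 to 0.348 over all alternatives. Between A/HS and B/HS the log2 difference was −0.61 (SE 0.198, adjusted *P* = 0.0573, edgeR), and DESeq2 called it (adjusted *P* = 0.0214, range over all alternatives 0.0214 to 0.355).

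*CPN60B3* is the third beta gene and was expressed at a low level. In TAIR10.1 it spans 22873666 to 22877407 on the plus strand of chromosome 5, with up to 15 exons. Levels were 20.8 and 29.1 CPM after A/HS, 24.9 and 22.1 CPM after B/HS and 10.5 and 12.7 CPM in control plants. The A/HS libraries lay on either side of the B/HS libraries, and both conditions lay above control. It rose 2.13-fold after A/HS (log2 fold change 1.09, SE 0.213, adjusted *P* = 0.00160, edgeR) and 2.01-fold after B/HS (1.00, SE 0.214, adjusted *P* = 0.00239).

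The order of the main beta transcripts was the other way round under heat. Per kb of exon, *CPN60B2* made up 75.9 and 75.4 % of *CPN60* beta after A/HS, 78.0 and 76.7 % after B/HS, and 31.3 and 38.8 % in control plants. *CPN60B1* made up 20.7 and 19.3 % after A/HS, 19.3 and 20.6 % after B/HS, and 63.6 and 55.4 % in control plants. The ratio of *CPN60B2* to *CPN60B1* was 3.67 and 3.91 after A/HS, 4.04 and 3.72 after B/HS, and 0.493 and 0.700 in control plants. Both heat conditions overlapped in this ratio and neither overlapped with control. On raw counts, without division by length, the mean ratio was 3.50 after A/HS, 3.58 after B/HS and 0.550 in control plants. The transcripts of these genes share few exact 50-base stretches. In each, 10 of them (0.435 % of those of *CPN60B2* and 0.366 % of those of *CPN60B1*) occur in the other. No other member shared any exact 50-base stretch with another gene. Stretches with mismatches were not counted, so this does not measure how similar the transcripts are. Whether reads were assigned to the wrong gene was not tested.

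**Figure D3:**
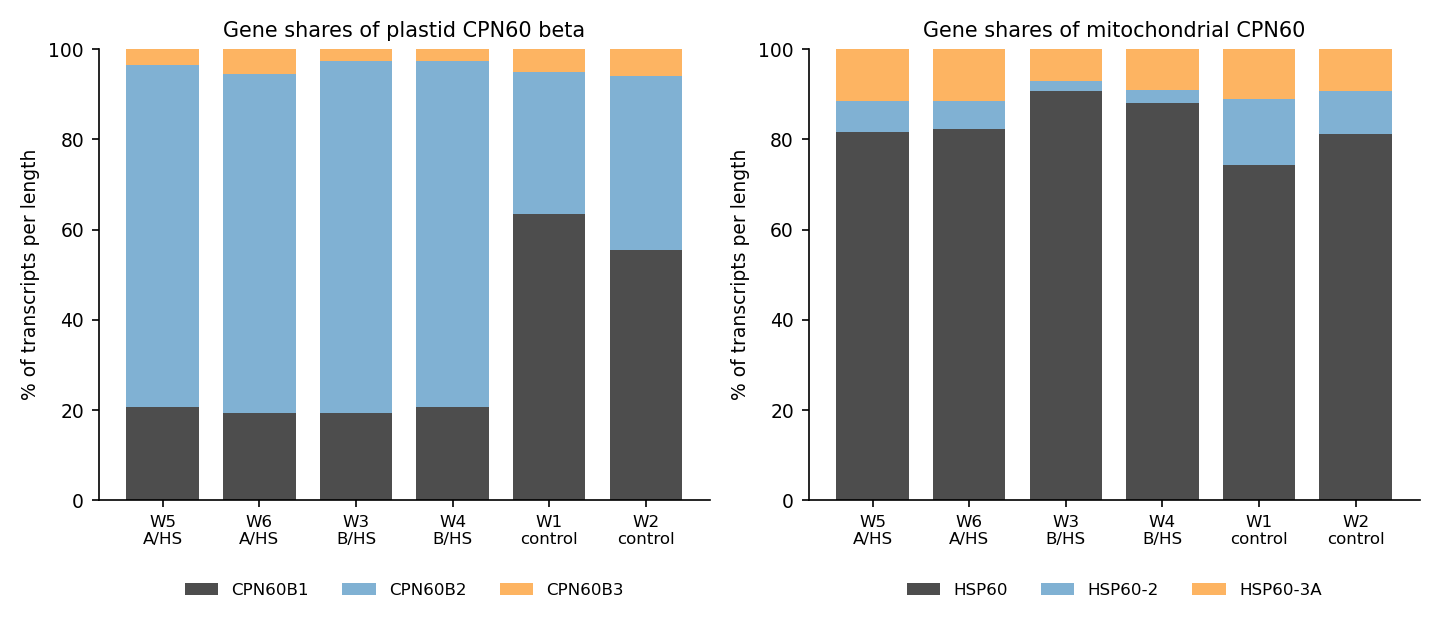
Share of each gene in the *CPN60* beta transcripts of the plastid (left) and in the *CPN60* transcripts of mitochondria (right), in % of CPM per kb, for each A/HS, B/HS and control library. *CPN60B2* took 75.4 to 78.0 % of the beta transcripts in the heat-stress libraries and 31.3 and 38.8 % in the control libraries.

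Among the co-chaperonins, *CPN10* encodes the lid of the mitochondrial barrel. In TAIR10.1 it spans 5165489 to 5166939 on the minus strand of chromosome 1, with up to 3 exons. Its level was 118 and 158 CPM after A/HS, 209 and 206 CPM after B/HS and 33.5 and 48.5 CPM in control plants, with no overlap. It rose 3.36-fold after A/HS (log2 fold change 1.75, SE 0.235, adjusted *P* = 0.000105, edgeR) and 5.05-fold after B/HS (2.34, SE 0.239, adjusted *P* = 9.4e-06). The A/HS libraries were below the B/HS libraries, but the log2 difference of −0.59 (SE 0.227) did not pass edgeR's test (adjusted *P* = 0.0990).

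*CPN20* encodes the tandem lid subunit of plastids. In TAIR10.1 it spans 7014662 to 7016698 on the plus strand of chromosome 5, with up to 7 exons. It was found at 159 and 151 CPM after A/HS, at 247 and 235 CPM after B/HS and at 85.8 and 88.7 CPM in control plants, with no overlap. It rose 1.78-fold after A/HS (log2 fold change 0.83, SE 0.193, adjusted *P* = 0.00495, edgeR) and 2.76-fold after B/HS (1.46, SE 0.196, adjusted *P* = 7.5e-05). It was lower after A/HS than after B/HS (log2 difference −0.63, SE 0.192, adjusted *P* = 0.0439, edgeR). As for *CPN60A1*, the call was lost without W3 (adjusted *P* = 0.302, edgeR), W4 (0.170), W5 (0.0731) or W6 (0.115), and the range over all alternatives was 0.00670 to 0.302.

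*CPN10-like* is a little-studied gene related to *CPN10* and was the least abundant of the 10 in CPM. The gene lies on chromosome 1 from 8195776 to 8196475 (plus strand, 3 exons). It had 62 and 59 counts after A/HS, 58 and 48 after B/HS, and 9 and 56 in control plants. This corresponds to 4.29 and 4.44 CPM after A/HS, 5.28 and 3.72 CPM after B/HS, and 0.840 and 3.29 CPM in control plants. Both heat conditions lay above both control libraries, but the control libraries were far apart. The log2 fold change was 0.98 after A/HS (SE 0.424, adjusted *P* = 0.0883, edgeR) and 1.02 after B/HS (SE 0.429, adjusted *P* = 0.0756). Without W2 these values were 2.33 (adjusted *P* = 0.00340, range over all alternatives 0.00340 to 0.428) and 2.36 (adjusted *P* = 0.00270, range 0.00270 to 0.356), and without W1 they were 0.42 (0.428) and 0.46 (0.356).

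The 3 genes that differed between the treatments, *HSP60*, *CPN60A1* and *CPN20*, were all lower after A/HS than after B/HS, against 7.63 % of all tested genes, and 0 were higher, against 6.25 %. Both A/HS libraries lay below both B/HS libraries in 7 of the 10 genes, against 29.6 % of all genes. The median log2 difference was −0.60 over the 10 genes and 0.02 over all tested genes. In 0 of the 10 did edgeR call a 4-fold difference, and DESeq2 called 0 as well. Such calls were rare among all tested genes too, at 1.17 % higher and 0.611 % lower after A/HS by edgeR. At an unadjusted *P*-value under 0.05, 7 of the 10 were lower after A/HS, against 15.7 % of all tested genes, and 0 higher, against 14.9 %. DESeq2 called 5 lower and 0 higher at its adjusted *P*-value, against 5.82 % lower and 3.01 % higher of all genes with such a value. Each of the 3 calls was lost without W3 and without W5.

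The ratios between parts of the machine also differed between conditions. Plastid *CPN60* transcripts exceeded those of *CPN20*, per kb of exon, 3.45 and 3.42 times after A/HS, 3.78 and 3.42 times after B/HS, and 2.03 and 2.17 times in control plants. Both heat conditions lay above control and overlapped with each other. This ratio covers members of the group only, and genes for plastid CPN10, also part of the lid, are not in it. The ratio of alpha to beta *CPN60* was 0.911 and 1.02 after A/HS, 1.09 and 1.08 after B/HS, and 0.772 and 0.863 in control plants, with no overlap. The ratio of mitochondrial *CPN60* to *CPN10* was 1.31 and 1.1 after A/HS, 1.87 and 1.41 after B/HS, and 1.06 and 1.25 in control plants, so that A/HS overlapped with control. Summed plastid *CPN60* exceeded summed mitochondrial *CPN60* in every library, 3.86 and 3.22 times after A/HS, 2.59 and 3.02 times after B/HS, and 5.30 and 3.46 times in control plants. The sums themselves were 465 and 437 CPM per kb for plastid *CPN60* after A/HS, 789 and 681 after B/HS, and 147 and 163 in control plants. For mitochondrial *CPN60* they were 121 and 136 after A/HS, 305 and 226 after B/HS, and 27.8 and 47.1 in control plants.

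**Figure D4:**
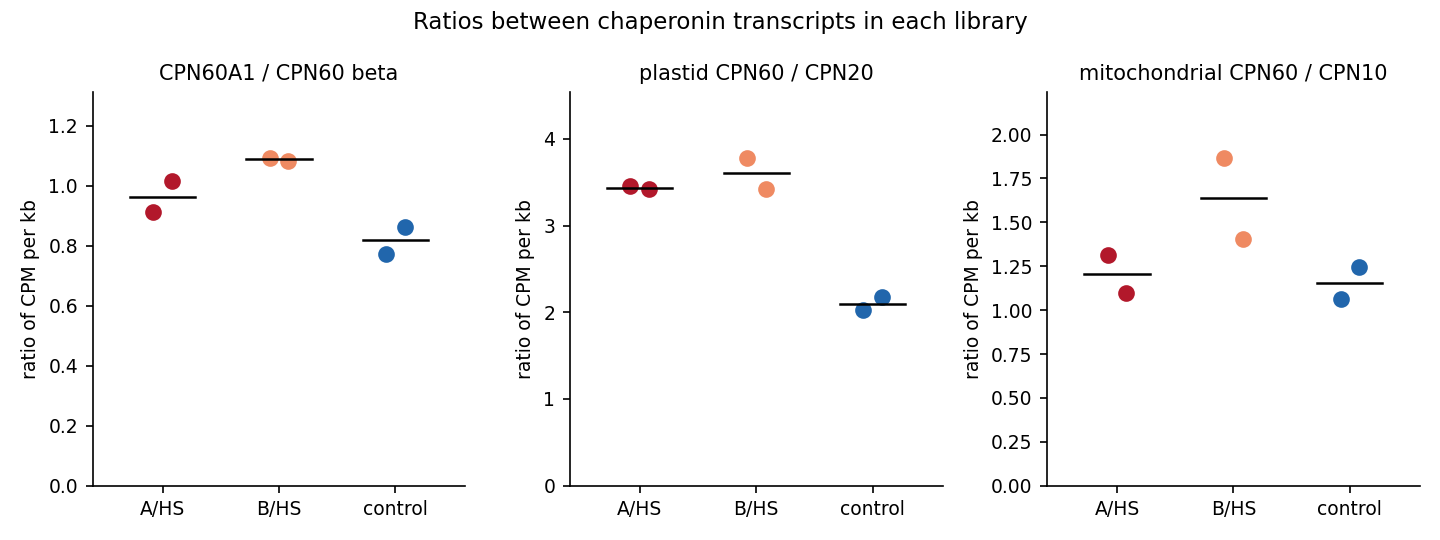
Ratios of chaperonin transcripts (CPM per kb) in each A/HS, B/HS and control library, with the mean of 2 as a line. The ratio of plastid *CPN60* to *CPN20* was 3.42 to 3.78 in the heat-stress libraries and 2.03 and 2.17 in the control libraries. The ratio of mitochondrial *CPN60* to *CPN10* overlapped between A/HS and control.

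In control plants the levels per kb fell into a higher and a lower range. *CPN20* (73.8 ± 1.73 CPM per kb, SD, n = 2), *CPN60A1* (69.9 ± 7.99) and *CPN60B1* (50.7 ± 3.16) stood highest, and the first 2 of them overlapped. *CPN10* (32.0 ± 8.26), *CPN60B2* (30.0 ± 5.55) and *HSP60* (29.5 ± 12.4) followed and did not differ beyond their spread. *CPN60B3*, *HSP60-2*, *CPN10-like* and *HSP60-3A* had means between 3.70 and 4.67 CPM per kb. The 2 control libraries of *CPN10-like* were far apart, at 1.60 and 6.28. After A/HS the order began with *CPN60A1* (221), *CPN60B2* (174) and *CPN20* (131), and after B/HS with *CPN60A1* (383), *CPN60B2* (272) and *HSP60* (238). The 3 leading genes after A/HS did not overlap, while after B/HS the libraries of *HSP60* overlapped with those of *CPN60B2* and of *CPN20* (204).

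Several members overlap a neighbouring gene, and how the counting treated strand and shared reads is not given in the sources used here. *CPN60B2* overlaps AT3G13480 on the other strand over 553 bp, and that gene had 23 to 89 counts per library, against 656 to 7605 for *CPN60B2*. *CPN20* overlaps *NPH4* (AT5G20730) over 254 bp, which had 140 to 266 counts against 920 to 3037, and AT5G03195 over 304 bp, which was at 0 in every library. *CPN60B1*, *CPN10* and *CPN10-like* overlap a neighbour over 49, 27 and 29 bp. AT1G23110, the neighbour of *CPN10-like*, had 136 and 113 counts after A/HS, 30 and 31 after B/HS, and 41 and 129 in control plants, which is more than *CPN10-like* itself in W1, W2, W5 and W6.

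The genes whose profile over the 6 *A. thaliana* libraries was closest to *HSP60*, by the root mean square difference of centred log2 CPM, were AT4G22350 (0.0734), AT4G15420 (0.0834) and AT5G64230 (0.104). Those closest to *CPN60A1* were *J3* (AT3G44110, 0.0835), which encodes a cytosolic DnaJ co-chaperone, AT1G36730 (0.0923) and *ER-ANT1* (AT5G17400, 0.0954), an adenine nucleotide carrier.

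Other folding machinery was set beside the chaperonins from gene lists. Of 4 further organelle chaperonin genes, 1 was higher after A/HS, against 18.3 % of all tested genes. After B/HS 2 were higher, against 20.0 %. *CPN60A2* (AT5G18820), which encodes another alpha subunit, rose after B/HS by 1.25 on the log2 scale (SE 0.292, adjusted *P* = 0.00424, edgeR). *CPN10-2* (AT3G60210), a plastid co-chaperonin gene, rose after B/HS by 1.23 (SE 0.207, adjusted *P* = 0.000448, edgeR). Its log2 fold change after A/HS was 0.58 (SE 0.207, adjusted *P* = 0.0435, edgeR), and this call, the only one of the list after A/HS, was lost with DESeq2 (adjusted *P* = 0.0944) and in edgeR without any 1 of the libraries W1 (0.163), W2 (0.133), W3 (0.0791), W4 (0.0693) or W6 (0.282). It was also lost with the 4 compared libraries alone (0.0784), RLE factors (0.0504), a minimum of 10 counts (0.0549) and thinned counts (0.0560), by edgeR, with a range of 0.00720 to 0.282 over all alternatives. The list's median log2 fold change was 0.36 after A/HS and 0.66 after B/HS.

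The organelle HSP70 system, which pulls proteins into the organelle and assists their folding, had 8 of 9 genes higher under each treatment. The share of all tested genes was 18.3 % after A/HS and 20.0 % after B/HS. The A/HS count was 7 without W1, where *cpHSC70-2* no longer passed (adjusted *P* = 0.0523, edgeR, range over all alternatives 0.000341 to 0.0523). The list's median log2 fold change was 1.68 after A/HS and 1.68 after B/HS. *MGE2*, a mitochondrial nucleotide exchange factor, changed by 2.87 after A/HS (SE 0.341, adjusted *P* = 4.0e-05, edgeR) and 3.42 after B/HS (SE 0.347, adjusted *P* = 9.0e-06). *mtHSC70-2*, a mitochondrial HSP70, changed by 2.75 after A/HS and 3.44 after B/HS. *cpHSC70-1* of plastids rose by 1.93 after A/HS, and *GFA2*, a mitochondrial DnaJ protein, by 2.20 after B/HS. *cpHSC70-2* was the one gene of this list that differed between the treatments, lower after A/HS than after B/HS by edgeR's test (log2 difference −0.83, SE 0.204, adjusted *P* = 0.0197). This call was lost without W3 (adjusted *P* = 0.215, edgeR), W4 (0.0786) or W6 (0.0801), with a range of 0.000948 to 0.215 over all alternatives.

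Of the 9 genes for CCT subunits of the cytosolic chaperonin, 5 were higher after A/HS, and 2 were higher and 1 lower after B/HS. Of all tested genes, 18.3 % were higher after A/HS, and 20.0 % were higher and 19.7 % lower after B/HS. *CCT8* rose by 1.51 after A/HS (SE 0.190, adjusted *P* = 6.3e-05, edgeR) and by 1.11 after B/HS (SE 0.189, adjusted *P* = 0.000506), and *CCT4* by 1.21 and 1.14. *CCT5* rose by 1.12 after A/HS. Without W2 the A/HS count was 4, since *CCT7* no longer passed (adjusted *P* = 0.117, edgeR, range over all alternatives 0.0115 to 0.117). The lower gene after B/HS was *CCT6B* (−0.55, SE 0.196, adjusted *P* = 0.0411, edgeR), and this call was lost with DESeq2 (adjusted *P* = 0.170) and in edgeR without W1 (0.120), W2 (0.124), W3 (0.236) or W4 (0.0989) or with no filter beyond 1 count (0.0582), within a range of 0.0237 to 0.236. Set against B/HS, 5 of the 9 were higher after A/HS, led by *CCT6B* (1.01), *CCT1* (0.83) and *CCT6A* (0.72), against 6.25 % of all tested genes. Each of these 5 calls was lost without W3. The log2 differences were then 0.91 (*CCT6B*), 0.80 (*CCT1*), 0.80 (*CCT6A*), 0.55 (*CCT5*) and 0.52 (*CCT3*). All but that of *CCT6B* were also lost without further single libraries. Without W5 the difference was 0.44 for *CCT5* and 0.53 for *CCT6A*. DESeq2 did not call *CCT5* (adjusted *P* = 0.0750) or *CCT6A* (adjusted *P* = 0.0843). The median log2 difference of the CCT genes was 0.63, and that of the 10 organelle chaperonin genes was −0.60. Whether the 2 groups differed was not tested.

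Of the 4 Rubisco assembly factors analysed here, which act after the plastid chaperonin, 1 was higher and 2 lower after A/HS. After B/HS, 1 was higher and 1 lower. None of these calls held in every alternative. Of all tested genes, 18.3 % were higher and 17.6 % lower after A/HS, and 20.0 % were higher and 19.7 % lower after B/HS. The log2 fold change of *RBCX1* was −1.16 after A/HS (SE 0.264, adjusted *P* = 0.00421, edgeR) and −0.78 after B/HS (SE 0.260, adjusted *P* = 0.0303). Without W2 these were −0.85 (adjusted *P* = 0.0625, edgeR) and −0.47 (0.280), and the B/HS call was also lost with DESeq2 (0.136) and in edgeR without W3 (0.0588) or W4 (0.205). *BSD2* had a log2 fold change of −0.56 after A/HS (adjusted *P* = 0.0258, edgeR), which was lost without W1 (0.118), W2 (0.0558), W3 (0.0597), W4 (0.0686) or W6 (0.116), or with the 4 compared libraries alone (0.0544). *RBCX2* had one of 0.54 after A/HS (adjusted *P* = 0.0336, edgeR), which was lost without any 1 of the 6 libraries (0.0519 to 0.215) or with the 4 compared libraries alone (0.0759). After B/HS it was 0.66 (adjusted *P* = 0.0113, edgeR), lost without W2 (0.112) or W3 (0.143). *RAF2* was lower after A/HS than after B/HS by edgeR's test (log2 difference −0.69, SE 0.182, adjusted *P* = 0.0264), which was lost without W3 (0.229), W4 (0.106) or W6 (0.0855).

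**Figure D5:**
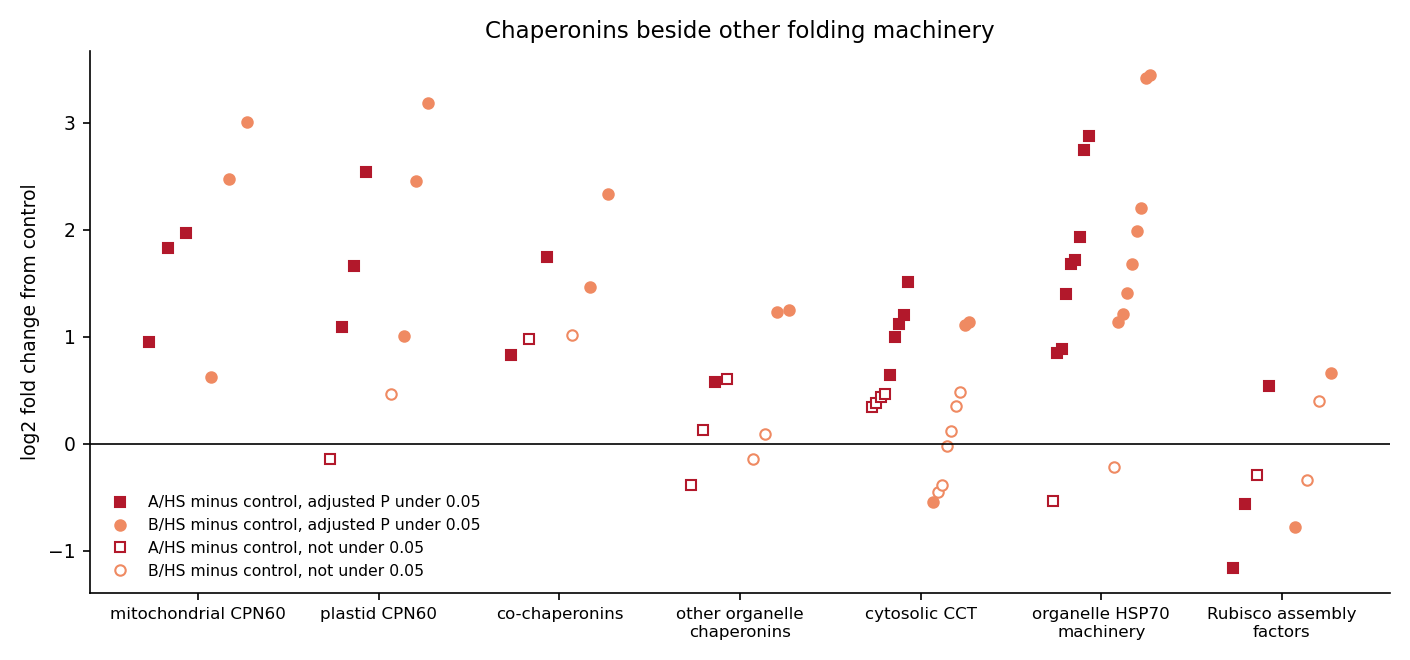
Log2 fold change from control of the chaperonin genes and of 4 further gene lists in *A. thaliana*, after A/HS (squares) and B/HS (circles). Each symbol is 1 gene and filled symbols had an adjusted *P*-value under 0.05. In the organelle HSP70 list 8 of 9 genes were higher under each treatment, against 18.3 % of all tested genes after A/HS and 20.0 % after B/HS. In the Rubisco assembly list 2 of 4 were lower after A/HS, against 17.6 %.

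For *HSP60* and *CPN60B1*, 1 gene each of *B. stricta* was paired with the *A. thaliana* identifier, and the counts of *B. depauperata*, a polyploid relative, were read on it. The pairs came from the identifiers in the study's supplement, where the other members had no unique pair, so those were not looked up. The *B. depauperata* libraries were EW13 and EW14 for A/HS, EW11 and EW12 for B/HS, and EW9 and EW10 for control, with the same treatments as in *A. thaliana*. The *HSP60* homolog was found at 1194 and 1604 CPM after A/HS, at 1098 and 523 CPM after B/HS and at 108 and 143 CPM in control plants. It rose by 3.48 on the log2 scale after A/HS (SE 0.446, adjusted *P* = 0.00372, edgeR) and by 2.69 after B/HS (SE 0.432, adjusted *P* = 0.0126), and the B/HS call was lost without EW9 (adjusted *P* = 0.102, edgeR), EW10 (0.0557) or EW11 (0.0779), within a range of 1.6e-09 to 0.102. Its A/HS libraries lay above its B/HS libraries, with a log2 difference of 0.79 (SE 0.407, adjusted *P* = 0.395, edgeR). The *CPN60B1* homolog was found at 484 and 169 CPM after A/HS, at 364 and 285 CPM after B/HS and at 680 and 464 CPM in control plants. Its log2 fold change was −0.81 after A/HS (SE 0.476, adjusted *P* = 0.271, edgeR) and −0.82 after B/HS (SE 0.476, adjusted *P* = 0.330). The A/HS value moved with single libraries and was −1.83 without EW13 (adjusted *P* = 0.0291, edgeR) and −0.23 without EW14 (0.703), the ends of its range over all alternatives. The species were fitted separately, and the difference between them was not tested.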

How the data were processed

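RNA-seq libraries were made from 2 separately raised sets of plants per condition. The authors trimmed the reads (fastx toolkit), mapped them to TAIR10 with TopHat 1.4.1, per the submitters' processing notes, and deposited whole-number counts per gene, without normalization. *B. depauperata* reads were counted on *B. stricta* genes. The counting program is not given in the sources used here.

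All 6 libraries of a species were fitted together with edgeR 4.0.16 (quasi-likelihood F test, TMM, filterByExpr), with Benjamini-Hochberg adjustment over 17669 *A. thaliana* and 17839 *B. depauperata* genes. Genes changed at an adjusted *P*-value under 0.05 and were DE if also changed 4-fold. Standard errors were derived from the F value, as the size of the log2 change over its square root. The fit was tested on simulated data. DESeq2 1.42.0, RLE factors, other filters, 4 libraries only, no organelle genes, thinned counts and each library left out were alternatives, and counts of DE genes under these were added after seeing the data. All members were named, and of each other list at most 3 genes per comparison with the largest change past the threshold. The 3 nearest profiles were taken for *HSP60* and *CPN60A1*. Members and lists were chosen with earlier results of these data known. The Rubisco assembly list was limited to the 4 genes given, without regard to their values, and some other such genes are not reported here. Positions and exon lengths came from RefSeq TAIR10.1, which matched 95.8 % of the gene identifiers. Replicate libraries differed by more than sampling noise in every condition (chi-square per degree of freedom 6.87 to 28.7). In *A. thaliana*, 3 counts corresponded to 0.176 to 0.280 CPM, and this covers counting error only.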

Additional observations from a re-analysis of the deposited data

Results flagged for a closer look

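Of the 2 genes paired between the species, *CPN60B1* was flagged by a rule on the order of the libraries. After B/HS both libraries of one species lay on the opposite side of its control from those of the other species. Such an order is common with 2 libraries per condition. Both B/HS libraries lay above both control libraries in 36.6 % of all tested *A. thaliana* genes. No such share is given for *B. depauperata* or for opposite sides in both species. After B/HS both *A. thaliana* libraries (185 and 172 CPM) lay above both control libraries (135 and 123 CPM), with a log2 fold change of 0.47. Both *B. depauperata* B/HS libraries (364 and 285 CPM) lay below both control libraries (680 and 464 CPM), with a log2 fold change of −0.82. Neither change passed edgeR's test (adjusted *P* = 0.0748 and 0.330), and the difference between the species was not tested.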

How the results depend on the processing

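No paired analysis was possible because the labels give no replicate numbers that tie libraries of different conditions. Over 13 alternative settings the 10 genes gave 387 fold changes, of which 0 reversed a called direction, 365 kept their side of the threshold, 14 lost it and 8 gained it. With the 4-fold threshold added, the number of changed chaperonin genes was 1 after A/HS, 5 after B/HS and 0 between A/HS and B/HS. Of all tested genes, 2.92 % were then higher after A/HS and 3.76 % after B/HS. Between A/HS and B/HS, 1.17 % were higher and 0.611 % lower. With DESeq2, 5 genes differed between A/HS and B/HS, all lower after A/HS, as were 5.82 % of all genes. Leaving out 1 library at a time gave 0 to 3 genes between A/HS and B/HS, and 1 to 5 DE genes after A/HS. The count of called tests among the 6 on *B. depauperata* homologs was 2 and ran from 1 to 3 with 1 library left out. Over all tested *A. thaliana* genes, the number that differed between A/HS and B/HS was 2453, 1457 with DESeq2 and between 334 (without W3) and 2264 with 1 library left out. Without W1, 3781 genes changed after A/HS (6333 with it), and without W3, 4114 after B/HS (7002 with it). The cause of these shifts was not tested. Where 1 library was left out, the lone library of its condition was assumed to vary like the others.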
